A study of Mus musculus with 2 samples.

Results

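S100 proteins and the annexins they bind were followed in sorted Vγ6 γδ T cells, as 10 genes taken by their symbols from the array's annotation. The genes were S100a4, S100a6, S100a8, S100a9, S100a10, S100a11, S100a13, Anxa1, Anxa2 and Anxa5, out of 30142 genes with a row of their own among 65956 rows. Of the 10, 9 had a row that names them alone, and S100a11 had a row that also names the gene models Gm12854 and Gm5068, so its signal cannot be given to S100a11 alone. The cells came from the thymus of C57BL/6 mice at day 0 of age. They were wild type (WT) or came from mice without MHC class II, a set of peptide-presenting surface proteins read by CD4 T cells, and this group is named MHC class II KO. The labels name no treatment, no disrupted allele and no pooling of animals. Each genotype was measured on 1 array, so no difference given here has a replicate, an error or a test. The number of arrays limits the precision of every value.

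S100 proteins are small calcium-binding proteins with EF-hand motifs that work mostly as dimers. Calcium opens a face on them with which they hold partner proteins, and several are also released from cells as signals of inflammation or damage. Annexins are a separate family that binds acidic phospholipids of membranes when calcium rises. The families meet in stable complexes, of which S100A10 with annexin A2 and S100A11 with annexin A1 are the best known. In T cells several of these genes are more active in effector and memory cells than in naive ones.

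The sorted cells carried the markers of their label. The T cell receptor component gene Cd3e had log2 signals of 16.90 in WT and 16.87 in MHC class II KO cells, and the Vγ6 gene Tcrg-V6 had 12.64 and 12.33. All 14 γδ T cell and Vγ6 markers with a row of their own were above background on both arrays. Background, taken from olfactory receptor rows, was 5.94 for WT and 5.86 for MHC class II KO on the log2 scale. These markers had a median difference of 0.02 (-0.019 after centring on the median of all genes), with Il17f at -2.88, Il17a at -1.57, Ccr6 at 1.46 and 5830411N06Rik at 0.52. Every difference is MHC class II KO minus WT, on the log2 scale.

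The comparison of the genotypes asked which genes Vγ6 γδ T cells express differently when MHC class II is missing. Among the S100 and annexin genes, Anxa1 and Anxa5 lay farthest apart. In MHC class II KO cells Anxa1 was 2.07-fold lower, Anxa5 was 1.82-fold higher and Anxa2 was 1.33-fold higher. Of the S100 genes, S100a9 was 1.37-fold lower, about as far from 0 as Anxa2, and S100a8 was 1.26-fold lower. The other S100 genes lay within a log2 difference of 0.22 either way.

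All 9 members with a row of their own were above background on both arrays. At least 2-fold lower was 1 of the 9, Anxa1, against 1.15% of the 14494 genes above background on at least 1 array. None was at least 2-fold higher, against 0.793% of those genes. At 1.5-fold, 1 member was higher and 1 lower, against 4.0% and 3.17%. The median difference of the 9 members was 0.07, beside 0.04 over all genes above background. It was -0.016 once a loess curve against mean signal was subtracted, so the members had no common direction.

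**Figure D1:**
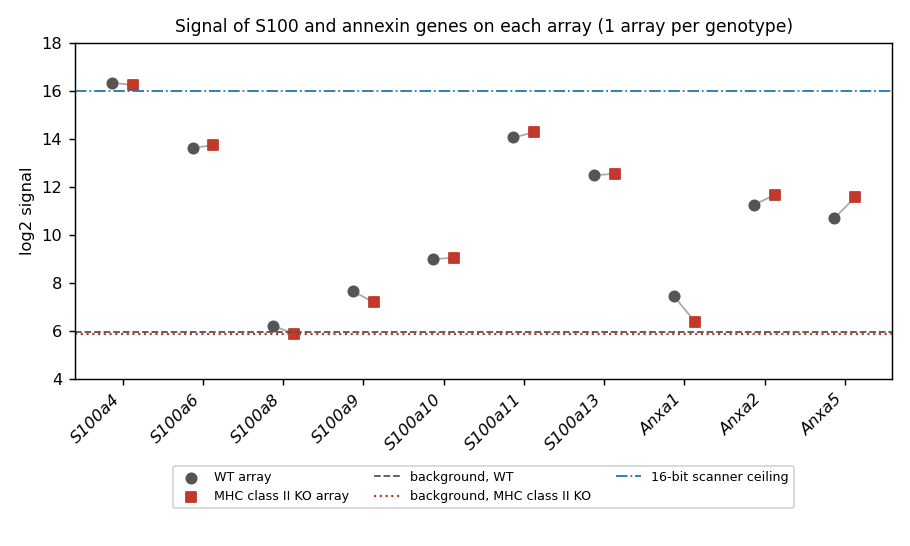
Log2 signal of each gene (y axis) on the WT array (grey circles) and the MHC class II KO array (red squares), 1 array per genotype, with the background of each array and the ceiling of a 16-bit scanner as lines. Anxa1 drops from 7.44 to 6.38 and Anxa5 climbs from 10.70 to 11.56, while S100a8 lies at background. Heights of different genes are not comparable, since each has its own probes.

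Anxa1 encodes annexin A1, which glucocorticoids induce and which dampens inflammation when it is released. Its log2 signal was 7.44 in WT and 6.38 in MHC class II KO cells, a difference of -1.05. In linear signal this was 173 against 83.5, where background stood at 61.3 and 58.2, so the lower value lay close to background. With background set at the 99th percentile of olfactory receptor rows, the lower value no longer passed it, and the bound was at least 1.26-fold lower. Of all genes above background, 1.72% differed by as much or more in either direction. Among the 1000 genes nearest to Anxa1 in mean signal, where values scatter more, that share was 5.6%. Over 3 other scalings its difference was between -1.09 and -1.04.

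Anxa5 encodes annexin A5, which binds phosphatidylserine and is used as a stain for dying cells. Its log2 signal was 10.70 in WT and 11.56 in MHC class II KO cells, a difference of 0.87. Both values were well over background, by 4.76 and 5.70. A difference as large in either direction was seen in 2.79% of all genes above background and in 1.6% of the 1000 genes nearest in mean signal.

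Anxa2 encodes annexin A2, which links membranes to the actin cytoskeleton and, on the cell surface, binds plasminogen and its activator. Its log2 signal was 11.25 in WT and 11.67 in MHC class II KO cells, a difference of 0.41. Of all genes above background 15.5% differed as far, so this value lies among common ones. The annexin members thus ran from -1.05 to 0.87. The middle 95% of all genes ran from -0.66 to 0.70, with Anxa1 and Anxa5 outside it. For Anxa1 that interval is a narrow reference, since 5.6% of genes of like signal differed as far, against 1.72% of all genes.

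**Figure D2:**
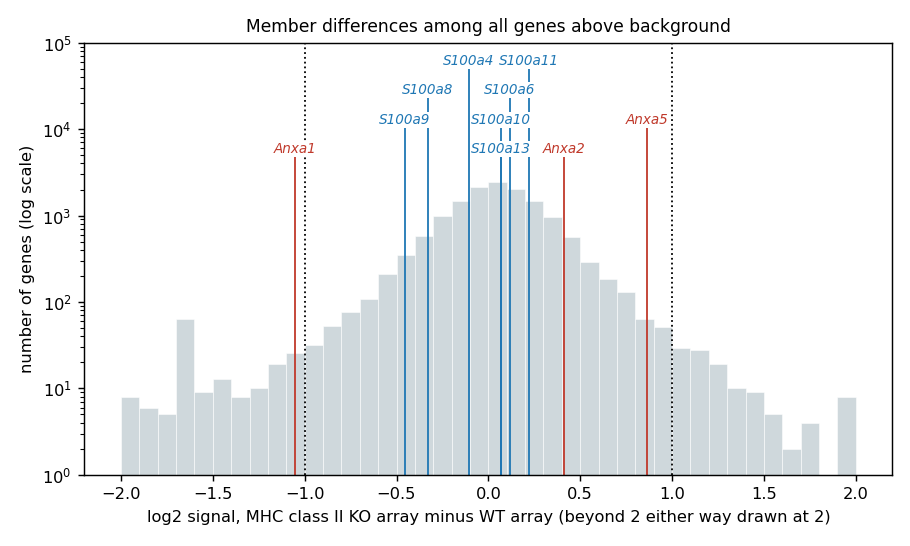
Number of genes (y axis, log scale) by log2 difference between the arrays (x axis), for 14494 genes above background, with the annexins (red) and S100 genes (blue) marked and 2-fold shown as dotted lines. Anxa1 at -1.05 and Anxa5 at 0.87 stand near opposite edges, and the S100 genes lie between -0.46 and 0.22.

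The promoters of the annexins are shown because these genes gave the lowest and the highest difference of the group. Each run is the 250 bases before the transcript start in RefSeq's table for GRCm38.p6, read in the gene's own direction. Capitals mark matches on either strand to the letters TATAAA (the core of a TATA box), GGGCGG (a GC box), TGAGTCA (AP-1 type) and TTGCNNAA (part of a C/EBP type site), and marked matches did not overlap one another.
Anxa1, chr19:20390672-20390921, minus strand: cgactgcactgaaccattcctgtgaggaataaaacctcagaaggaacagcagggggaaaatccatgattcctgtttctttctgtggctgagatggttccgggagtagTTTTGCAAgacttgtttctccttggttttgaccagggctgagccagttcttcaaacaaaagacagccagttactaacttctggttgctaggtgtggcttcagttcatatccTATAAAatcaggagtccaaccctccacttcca
Anxa2, chr9:69453433-69453682, plus strand: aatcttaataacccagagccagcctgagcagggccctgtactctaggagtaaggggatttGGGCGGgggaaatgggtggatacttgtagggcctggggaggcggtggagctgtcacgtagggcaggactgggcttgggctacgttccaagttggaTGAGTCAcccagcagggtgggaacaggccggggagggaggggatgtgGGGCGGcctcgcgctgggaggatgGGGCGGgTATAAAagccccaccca
Anxa5, chr3:36475888-36476137, minus strand: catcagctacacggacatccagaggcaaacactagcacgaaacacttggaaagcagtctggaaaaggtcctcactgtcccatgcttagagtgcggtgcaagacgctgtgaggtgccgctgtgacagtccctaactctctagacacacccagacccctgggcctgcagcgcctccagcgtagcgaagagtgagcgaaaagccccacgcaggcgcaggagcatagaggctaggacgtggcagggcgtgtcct

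The Anxa1 window held a TATAAA beginning 32 bases before the start and a TTGCNNAA match 143 bases before it. The Anxa2 window held 3 GGGCGG, 1 TGAGTCA and 1 TATAAA, the last 17 bases before the start. The Anxa5 window held none of the 4 motifs, which says only that these letters are not in it. Anxa5 had 13 CG pairs in its window and Anxa1 had 2, beside a median of 6 over 32851 promoter windows. Of those windows, 12.4% held TATAAA, 32.7% GGGCGG, 4.46% TGAGTCA and 9.56% TTGCNNAA. The promoter table matched 9 of the 10 members, without S100a10, and 4 of the matched members held TATAAA (S100a4, S100a8, Anxa1 and Anxa2). These matches are a description of sequence, and the arrays do not measure binding at them.

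S100a8 and S100a9 encode the subunits of calprotectin, which neutrophils and monocytes hold in large amounts and release at sites of inflammation. S100a9 had log2 signals of 7.64 in WT and 7.19 in MHC class II KO cells, a difference of -0.46. S100a8 had 6.21 and 5.88, a difference of -0.33. Both genes were therefore lower in MHC class II KO cells, but neither by 1.5-fold, and 12.7% of all genes differed as far as S100a9. S100a8 stood only 0.27 over background in WT and 0.02 over it in MHC class II KO cells, and it was under the 99th percentile of the olfactory receptor rows in both.

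Granulocyte markers were mostly near or under background. Of 22 with a row of their own, 5 were above it on at least 1 array, 4 with differences below 0 and 1 above (median of the 5, -0.66). At least 1.5-fold lower in MHC class II KO cells were 3 of the 5. Of the 14494 genes above background, 6215 had differences below 0 and 3.17% were at least 1.5-fold lower. The 3 markers were the stefin genes Stfa1 (-0.94), Stfa3 (-0.71) and Stfa2 (-0.66), near-identical copies of a protease inhibitor gene whose signals may be shared. The median of the 5 is thus the value of a stefin gene. Ltf, the lactoferrin gene, passed background in WT alone and was at least 1.12-fold lower in MHC class II KO cells. Ly6g, a surface marker of neutrophils named after its value was seen, went the other way, passing background in MHC class II KO cells alone at 1.06-fold higher or more. The summed signal of the 22 markers was 1252 in WT and 935 in MHC class II KO cells (898 and 751 without Stfa1). As 17 of the 22 were not above background, this sum holds background signal and is no measure of granulocyte RNA. The defining granule genes Elane, Mpo, Prtn3, Ngp and Camp, picked out after their values were seen, were not above background on either array. The part of granulocyte RNA in the S100a8 and S100a9 values was not tested, and in sorted bulk cells fewer cells of a type and less RNA per cell cannot be told apart.

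Receptors for calprotectin and related S100 proteins were near 0. Of 9 such genes, 6 were above background and all 6 had differences below 0, from -0.37 to -0.0087 (median -0.12), without any reaching 1.5-fold, although 2 of them turned above 0 after quantile normalization. Of the 14494 genes above background, 6215 had differences below 0, and their median was 0.04. Cd69, an early activation marker that has been described as binding S100A8/A9, had -0.37, Ly96, the partner of the receptor TLR4, -0.30, Cd33 -0.15 and Nptn -0.10. Tlr4 itself was not above background, and Ager, which encodes the receptor RAGE, differed by -0.02 close over background, with a log2 signal of 6.58 and 6.56. Both are named after their values were seen.

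S100a4 encodes a motility-related protein that binds non-muscle myosin. Its log2 signal was 16.34 in WT and 16.23 in MHC class II KO cells, a difference of -0.11. Both signals, 82786 and 76921, were above the 65535 that a 16-bit scanner can read, and the labels do not describe the step that took them there. Whether this narrowed the difference of S100a4 was not tested.

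S100a6 encodes calcyclin, a protein of dividing and stressed cells that binds the ubiquitin ligase component CACYBP. It had log2 signals of 13.61 in WT and 13.73 in MHC class II KO cells, a difference of 0.12. S100a13, which encodes a protein tied to the release of growth factors that lack a signal peptide, had 12.47 and 12.54, a difference of 0.07. For S100a6 63.3% of genes above background differed as far, and for S100a13 77.4%, so both lie in the middle of all genes.

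S100a10 encodes the partner of annexin A2, an S100 protein that holds its partner without calcium. Its log2 signal was 8.98 in WT and 9.05 in MHC class II KO cells, a difference of 0.07 that turned to -0.016 after the loess correction. Anxa2 differed by 0.41, so the genes of this complex were 0.34 apart in their differences. By measured values their gap was smaller than that of the other complex. The row that holds S100a11, the partner of annexin A1, had 14.05 and 14.27, a difference of 0.22, and the difference of Anxa1 minus this one was -1.27. The size of that gap is uncertain, since Anxa1 lay close to background in MHC class II KO cells and the S100a11 row also names gene models.

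**Figure D3:**
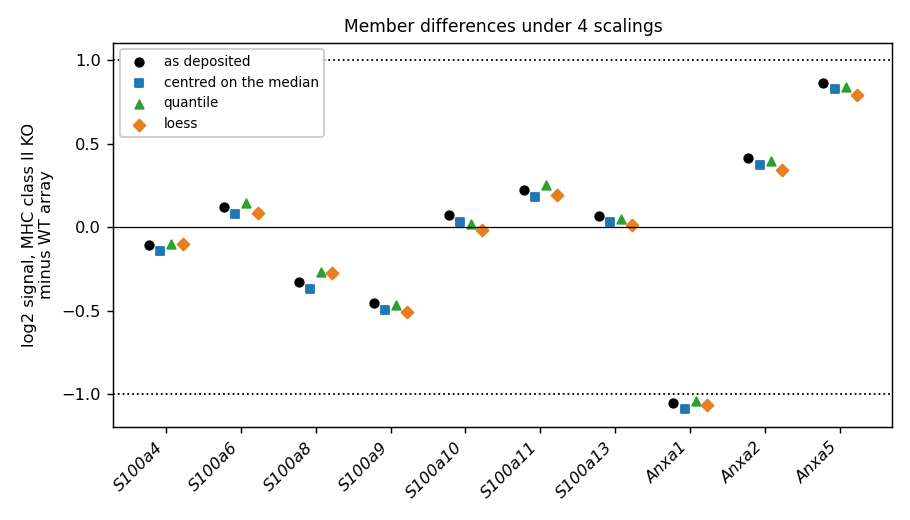
Log2 difference of each gene (y axis) as deposited and after centring on the median of all genes, quantile normalization and loess correction, with 2-fold as dotted lines. Anxa1 stays below -1 and Anxa5 between 0.79 and 0.87, and S100a10 crosses 0 under loess.

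Genes of other proteins that bind S100 proteins had slightly higher signals on the MHC class II KO array. Of 7 with a row of their own, 6 were above background, all with differences above 0 and none at 1.5-fold (median 0.17, beside 0.04 for all genes, of which 56.4% lay above 0). All 6 stayed above 0 under each of the 4 scalings. Sugt1, a chaperone adaptor that binds S100A6, had 0.31, the scaffold gene Iqgap1 0.27, Nucb1 0.21 and Cacybp 0.14. Ahnak, a giant scaffold held by the annexin A2 complex, had 0.28, the myosin gene Myh9 0.24 and Stub1 0.26, but each of their rows also names a small RNA.

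Among 11 other S100 genes, 3 were above background on at least 1 array, S100a1, S100a3 and S100a2. S100a1, a regulator of calcium handling in muscle, had log2 signals of 7.02 in WT and 7.68 in MHC class II KO cells, a difference of 0.66. It was the one of the 3 with a measured difference of 1.5-fold or more on both arrays, and its neighbour S100a13, whose start lies next to that of S100a1 on the other strand, differed by 0.07. S100a3 differed by -0.02. S100a2 passed background in WT alone, at a log2 signal of 6.14, and was at least 1.21-fold lower in MHC class II KO cells. S100pbp, which encodes a binder of S100P and no S100 protein, differed by -0.13. The 8 other S100 genes, among them S100b and S100a16, were not above background on either array.

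Among the rest of the annexins, 2 of 8 genes with a row of their own were above background. Anxa6, the annexin with a doubled core, had 14.09 and 14.40, a difference of 0.31. Anxa7 had 8.36 and 8.54, a difference of 0.17. Anxa11 has 3 rows, each shared with a gene model, and their differences lay between -0.0015 and 0. Of these rows, 2 held the same value on both arrays to the last digit, so no difference can be read from those 2. Of the annexins above background, Anxa2, Anxa5, Anxa6 and Anxa7 were thus higher in MHC class II KO cells, by 0.17 to 0.87 as deposited. They stayed above 0 under the 3 rescalings too, while Anxa1 was lower and Anxa11 is not counted either way. Of all genes above background, 56.4% had differences above 0.

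The annexin A2 complex brings plasminogen to its activators. Of 7 genes of that system with a row of their own, 2 were above background. Plaur, the urokinase receptor gene, had log2 signals of 8.41 in WT and 6.11 in MHC class II KO cells, a difference of -2.30. The lower value lay close to the background of 5.86 and under the 99th percentile of olfactory receptor rows, 7.10. The size of the Plaur difference is therefore uncertain. Plgrkt, another plasminogen receptor gene, differed by 0.08, and Plat, Plau and Plg, the genes of the activators and of plasminogen, were not above background. Of the formyl peptide receptor genes listed for annexin A1, Fpr1, Fpr2 and Fpr3 were not analysed here, so their expression is not known from these values. The 4 with a row were the related genes Fpr-rs3, Fpr-rs4, Fpr-rs6 and Fpr-rs7, and these were not above background.

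Annexins A1, A2 and A5 also take part in closing torn membranes. Of 16 genes of membrane repair, 11 were above background (median 0.05, beside 0.04 over all genes above background). At least 1.5-fold higher were 2 of them (1 after centring or the loess correction), and none was 1.5-fold lower. Of all genes above background, 4.0% were at least 1.5-fold higher and 3.17% lower. The 2 repair genes were the calcium-activated proteases Capn2 (0.69) and Capn1 (0.60). Vps4a, an ATPase that drives membrane scission, differed by 0.44 and Chmp4b, a subunit of the filaments it acts on, by -0.28.

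Genes that effector and memory T cells share with this group showed small differences. All 12 with a row of their own were above background, and none was 1.5-fold apart (median 0.13, beside 0.04 over all genes above background). Of all those genes, 4.0% were at least 1.5-fold higher and 3.17% lower. Itgb7, a gut-homing integrin chain, had 0.46, the adhesion receptor gene Cd44 0.42, the actin-capping gene Capg 0.32 and the integrin chain Itgb1 -0.32.

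**Figure D4:**
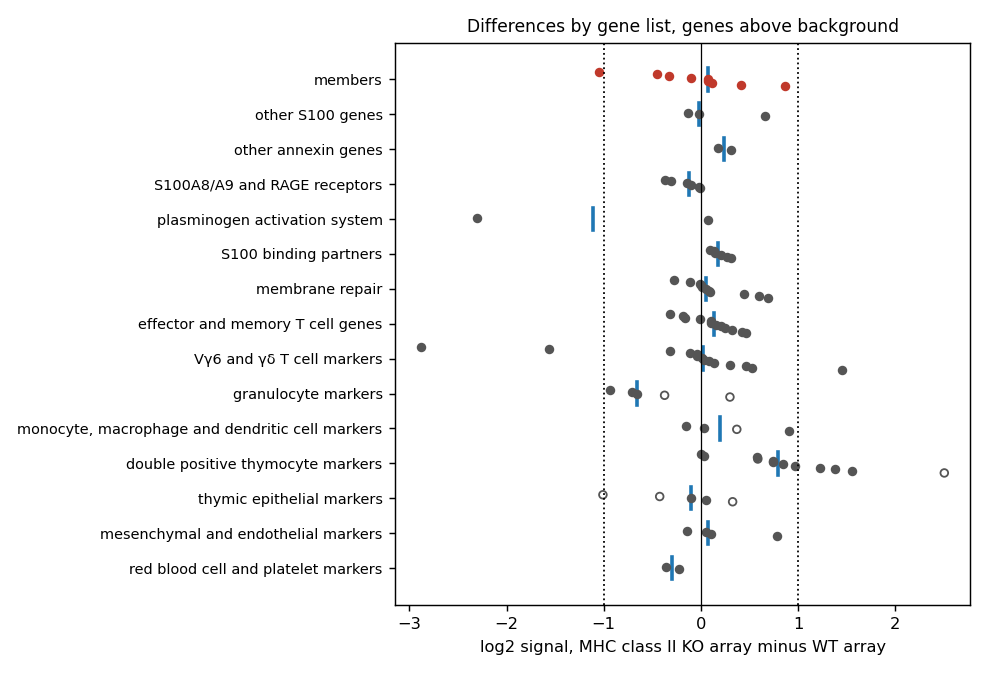
Log2 difference between the arrays (x axis) of genes above background, by list, with the S100 and annexin genes in red. Filled points were above background on both arrays, open points on 1, blue bars are medians and dotted lines mark 2-fold. The members spread on both sides of 0, and the double positive thymocyte markers lie higher (median 0.80). The 5 granulocyte markers shown have a median of -0.66, and the lowest of them are the 3 stefin genes.

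Markers of other thymic cells moved in the same comparison as Anxa5 and Anxa1. Of 13 markers of double positive thymocytes with a row of their own, 12 were above background. At least 1.5-fold higher were 9 as measured, and 8 when values under background are raised to it, with none lower. Of all genes above background, 4.0% were 1.5-fold higher as measured. The summed signal of the 13 markers went from 15118 to 34814, of which Cd8b1 alone gave 10634 and 27602, and without Cd8b1 from 4484 to 7211. The largest measured differences on both arrays were those of Ly6d at 1.55, Cd8b1 at 1.38 and Aqp11 at 1.23. Dntt, which passed background in MHC class II KO cells alone, was at least 3.68-fold higher. Other markers moved less or not at all. Rag2 was not above background on either array, Cd1d1 differed by 0.04 and Rmnd5a by -0.0. Rag1, whose row names several symbols, differed by 0.36. Rag1, Rag2, Cd1d1 and Rmnd5a are named after their values were seen. The part of such cells in the Anxa5 and Anxa2 values was not tested.

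Of 14 thymic epithelial markers, 5 were above background on at least 1 array (median -0.10). Krt8 and Epcam passed it in WT alone, which makes Krt8 at least 1.18-fold and Epcam at least 1.17-fold lower, Ly75 passed it in MHC class II KO cells alone at 1.07-fold higher or more, and Ccl25 differed by -0.10. The summed signal of all 14 was 741 in WT and 653 in MHC class II KO cells, but 9 of the 14 were not above background, so it holds background signal. Foxn1, Krt5 and Krt14, picked out after their values were seen, were among those 9. The part of epithelial cells in the Anxa1 value was not tested.

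Of 20 monocyte, macrophage and dendritic cell markers, 4 were above background (median 0.20), with Cd68 at 0.91, Ccr2 at -0.16, Siglech at 0.03 and Lyz2 at least 1.23-fold higher. Their summed signal was 13216 and 12209, most of it from Ccr2, and without Ccr2 it was 927 and 1183. Mesenchymal and endothelial genes passed background in 4 of 13 cases (median 0.08, or -0.0022 after the loess correction), with Thy1, which T cells also express, at 0.78, Sparc at -0.14, Pecam1 at 0.11 and Pdgfrb at 0.05, and summed signals of 4213 and 4356 (1474 and 1869 without Sparc). Red blood cell and platelet genes passed background in 2 of 7 cases, Gp9 (-0.36) and Hbb-y (-0.22), with summed signals of 384 and 352. The adult globin genes, whose rows name several of them together, were higher in MHC class II KO cells, with the row of Hbb-bs and Hbb-bt going from 7.08 to 8.16, a difference of 1.09, and that of Hba-a1 from 6.00 to 6.32. The sums of these lists also hold markers not above background, 16 of 20, 9 of 13 and 5 of 7 in turn. The part of the cells of these lists in the annexin values was not tested either.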

How the data were processed

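RNA of sorted Vγ6 γδ T cells from WT and MHC class II KO mice was measured on 2 whole-transcript arrays, 1 per genotype. The deposited table holds linear intensities, 1 per row and array, and the submitters' processing notes name RMA and Affymetrix Expression Console 1.4.1. Neither its settings nor a genome build were found in the labels.

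The log2 of each intensity was taken. Symbols came from the platform's annotation, updated by gene identifier through RefSeq's table of GRCm38.p6, and the brightest row stood for a gene. Rows of olfactory receptors (1228) set background at their 95th percentile. A gene above it on 1 array has only a bound. No test was possible, and calls are 2-fold differences.

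The members and the 16 gene lists were chosen with earlier results of these data known. Named were all members, all other S100 and annexin genes above background, up to 4 genes per other list with the largest difference, and the 4 extreme neighbours of the S100 cluster. Alternatives covered scaling, background, row averaging and thresholds. The counting was tested on simulated data. Python 3.11.15, numpy 2.4.6 and statsmodels 0.14.6 were used.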

Additional observations from a re-analysis of the deposited data

How the results depend on the processing

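Under the 3 rescalings, 29 of 30 values of single members kept their sign and their side of 2-fold. The background filters, raising low values and averaging rows could not move a member's value and gave the main one in all 54 cases, so they bear only on which members passed. The exception was S100a10, at -0.016 after the loess correction (fraction 0.3). That correction also took the median of the members, which is then S100a10, to -0.016, and the mean of the members was -0.045. By measured value, the count of members at least 2-fold apart was 1 under the scaling and filter settings, 2 at 1.5-fold and 0 at 3-fold. With background at the 99th percentile, log2 signals of 7.01 and 7.10, S100a8 was left out and Anxa1 passed it in WT alone. This leaves for Anxa1 a bound of at least 1.26-fold lower, so its 2-fold call is not secured under that filter. No paired analysis was possible because each genotype has 1 array. Signals near background, as for S100a8 and Anxa1, limit what can be read from small differences.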

Other observations

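Most S100 genes lie together on chromosome 3, in a region that also holds genes of the skin's outer layer. In the order of RefSeq's table, 93 genes outside the fixed S100 lists, S100a2 among them, lie from 3 genes before S100a1 to 3 genes after S100a10, and 65 of them had a row. Of these, 15 were above background on at least 1 array, with a median difference of -0.18 and none 2-fold apart. The median over all genes above background was 0.04. Among the 15, S100a2, Gm24593 and Lce1a2 passed background in WT alone, each with a measured difference below -0.18, so the filter bears on that median. Ilf2, which encodes an RNA-binding protein, was highest at 0.57, followed by the gene model Gm9774 at 0.12. S100a2 was lowest by measured value at -0.78 and the small RNA model Gm24593 next at -0.71, but both passed background in WT alone, so S100a2 was at least 1.21-fold and Gm24593 at least 1.54-fold lower.

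Of the 3 rows that name Anxa11, the 2 shared with 1 gene model each held the same value on both arrays to the last digit, at log2 signals of 13.14 and 13.02. Such identical pairs occurred in 845 of the 65956 rows.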
